A study of Mus musculus with 72 samples.

Results

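Itm2a and Egr2 were chosen by name, for an interaction of bintrafusp alfa and radiation described as opposite in direction, and they are 2 of the 1224 genes measured. The values that chose them are their interaction contrasts and, through the direction, the changes with single treatments, so their group levels and changes are given below as a description with no test. Both were measured in 36 tumours of 4T1 cells, a line derived from a BALB/c mouse mammary carcinoma, and both passed the filter on low counts that left 1038 genes to test. The recipients were female BALB/c mice aged 6 to 12 weeks that received the cells on day -6, were treated on day 0 and were killed on day 6.  BA+RT mice (n = 9) received bintrafusp alfa (492 µg) with radiation, and RT mice (n = 9) received radiation with an isotype antibody. BA mice (n = 9) received bintrafusp alfa (492 µg) alone, and control mice (n = 9) received the isotype antibody (400 µg) alone. Bintrafusp alfa, labelled M7824, joins an antibody against PD-L1 to the extracellular domain of a TGF-β receptor, which traps the ligand. In the labels the tissue is an orthotopic tumour, whereas the design text has the cells injected into the thigh. No source used here gives a dose of radiation.

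Itm2a encodes a small membrane protein with a BRICHOS domain. In mice it is induced as thymocytes pass positive selection and as T cells are activated, and it is also made in skeletal muscle and cartilage. Egr2, also called Krox20, encodes a zinc-finger transcription factor of the immediate-early class. It is best known for patterning the hindbrain and for myelination by Schwann cells. In T cells it is switched on downstream of the antigen receptor through NFAT and is linked to anergy, a state of unresponsiveness, and in mouse macrophages it is induced by interleukin 4.

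Each gene was read through a single targeted amplicon of 95 bases on panel 1 of the 2 panels used. The 2 amplicons are shown because every value below counts these stretches alone, and they are written 5′ to 3′ along the strand of the transcript with no letters marked.
Itm2a: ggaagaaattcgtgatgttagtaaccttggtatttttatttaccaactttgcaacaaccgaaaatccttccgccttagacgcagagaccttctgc
Egr2: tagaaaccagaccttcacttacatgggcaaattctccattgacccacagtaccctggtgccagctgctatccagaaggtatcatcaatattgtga
The Itm2a amplicon (ENSMUSG00000031239) lies at chrX:107398099-107398193 on the minus strand of GRCm38, inside coding sequence of exon 5 of 6, and has a GC content of 41.1%. The Egr2 amplicon (ENSMUSG00000037868) lies at chr10:67539830-67539924 on the plus strand, inside coding sequence of exon 2 of 2, and has a GC content of 45.3%. It is present in 6 of the 7 annotated Egr2 transcripts, so isoforms were not told apart. Neither amplicon shares a 25-base stretch with a transcript of another annotated gene (0 other genes for each). Levels are given as CPM, which are counts scaled to a common library size, and the 2 genes cannot be compared in level with each other, since each amplicon amplifies at its own rate.

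Itm2a was highest in control tumours, lowest in BA tumours and in between in both irradiated groups. Its level in BA+RT tumours was 825 CPM at the lowest, 1459 CPM at the median and 1792 CPM at the highest. In RT tumours the lowest, median and highest levels were 814, 1362 and 1820 CPM. BA tumours held 640, 945 and 1114 CPM, against 1404, 1676 and 2661 CPM in control tumours. All 9 BA tumours lay below the lowest control tumour, so these 2 groups did not overlap. For comparison, edgeR called 27% of all tested genes between BA and control tumours, and 14.5% as lower in BA. A call is a different criterion from ranges that do not overlap, and the share of all genes without overlap was not counted. All 9 BA+RT tumours lay inside the range of the RT tumours. Of the BA+RT tumours 8 of 9 lay above the highest BA tumour, and 4 of 9 lay below the lowest control tumour. Of the RT tumours 6 of 9 lay below the lowest control tumour, and 6 of 9 lay above the highest BA tumour. Over all genes, edgeR called 41.6% between RT and control tumours (21.1% as lower in RT), 53.5% between BA+RT and BA tumours and 10.8% between BA+RT and RT tumours.

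In means, Itm2a stood at 1367 ± 284 CPM in BA+RT tumours, 1295 ± 287 CPM in RT tumours, 904 ± 156 CPM in BA tumours and 1870 ± 464 CPM in control tumours (SD, n = 9 each). The order of the means was control, BA+RT, RT and BA, and the neighbours BA+RT and RT did not differ beyond their spread. BA tumours were 2.07-fold lower than control tumours, a log2 difference of -1.05 (SE 0.14). With radiation in both groups, BA+RT tumours differed from RT tumours by 0.08 on the log2 scale (SE 0.14). RT tumours were 1.44-fold lower than control tumours, a log2 difference of -0.53 (SE 0.14). BA+RT tumours were 1.51-fold higher than BA tumours, a log2 difference of 0.60 (SE 0.14). Radiation thus went with a lower Itm2a level where BA was absent and with a higher one where BA was present.

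**Figure D1:**
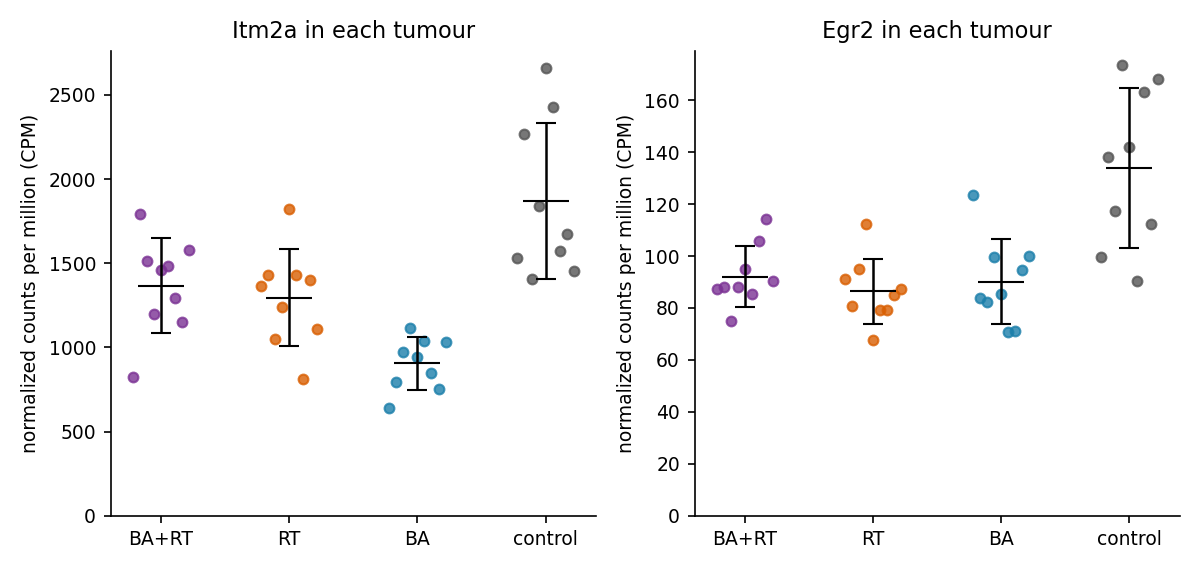
Level of Itm2a (left) and Egr2 (right) in each of the 36 tumours, in CPM; each point is 1 tumour, the long line is the group mean and the bars are ± SD (n = 9 per group). All 9 BA tumours lie below the lowest control tumour for Itm2a, at 640 to 1114 CPM against 1404 to 2661 CPM, while for Egr2 the BA+RT, RT and BA tumours share one range and the control tumours reach higher.

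Egr2 stood at about the same level in the 3 treated groups and was higher in control tumours. Its lowest, median and highest levels were 74.8, 88.0 and 114 CPM in BA+RT tumours. In RT tumours they were 67.6, 85.0 and 112 CPM. BA tumours held 70.9, 85.5 and 123 CPM, against 90.5, 138 and 174 CPM in control tumours. Every pair of groups overlapped. All 9 tumours of each treated group lay below the control mean. Below the lowest control tumour lay 6 of 9 BA+RT tumours, 6 of 9 RT tumours and 5 of 9 BA tumours. Among the treated groups, all 9 BA+RT tumours lay inside the range of the BA tumours and 8 of 9 lay inside that of the RT tumours.

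Mean Egr2 was 92.0 ± 11.7 CPM in BA+RT tumours, 86.4 ± 12.5 CPM in RT tumours, 90.1 ± 16.5 CPM in BA tumours and 134 ± 30.7 CPM in control tumours (SD, n = 9 each). The order of the means was control, BA+RT, BA and RT, and the last 3 did not differ beyond their spread. BA tumours were 1.49-fold lower than control tumours, a log2 difference of -0.57 (SE 0.12). RT tumours were 1.55-fold lower than control tumours, a log2 difference of -0.63 (SE 0.12). With the other treatment already present the differences were smaller: BA+RT differed from RT tumours by 0.09 (SE 0.12) and from BA tumours by 0.03 (SE 0.12) on the log2 scale, or by 0.23 (SE 0.11) from BA tumours when scaled by the panel's reference genes. Between BA+RT and BA tumours the Itm2a ranges overlapped in 1 BA+RT tumour of 9 and the Egr2 ranges in all 9.

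**Figure D2:**
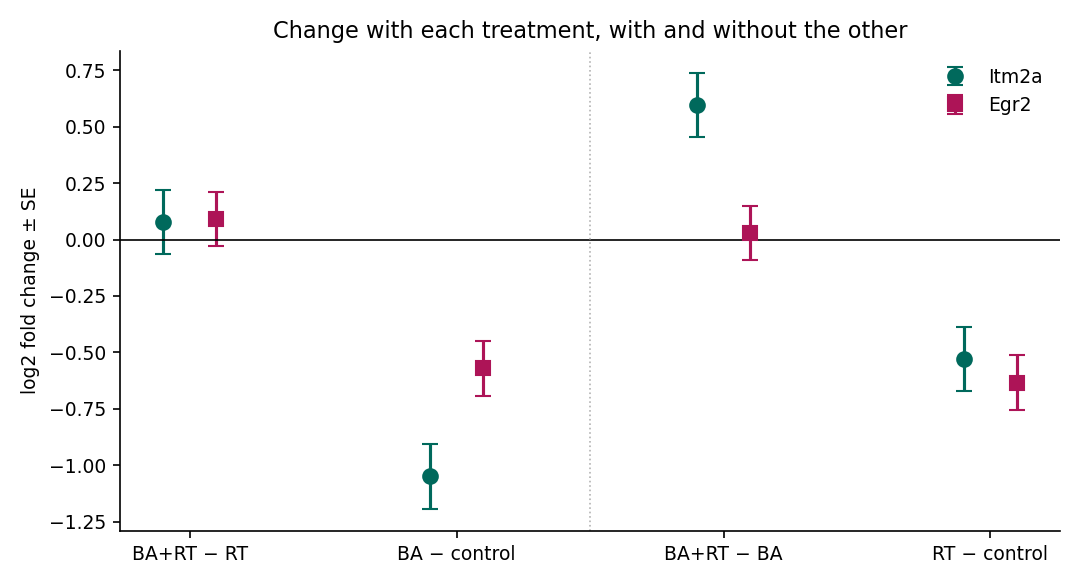
Log2 fold change of Itm2a (circles) and Egr2 (squares) for each treatment with and without the other, with bars of ± SE from the fit over all 36 tumours. Both genes are lower in BA than in control tumours (-1.05 and -0.57) and lower in RT than in control tumours (-0.53 and -0.63), and the 4 changes measured in the presence of the other treatment lie between 0.03 and 0.60.

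The interaction contrast is the log2 change with BA in irradiated tumours minus the log2 change with BA in unirradiated tumours. It was 1.13 (SE 0.20) for Itm2a, a 2.18-fold difference between the 2 changes, which placed the gene at rank 4 from the top of the 1038 genes tested. It was 0.66 (SE 0.17) for Egr2, a 1.58-fold difference, at rank 29 from the top. The median over all tested genes was 0.02. Both contrasts had the same sign, positive, so the 2 genes were not opposite to each other. What was opposite was the sign of the interaction against the sign of each single treatment's change, which was negative in both genes for BA and for RT. This contrast named the genes, and nothing is read from its size. Over all genes 8.29% were called for an interaction in edgeR, 35 with a positive sign (3.37%) and 51 with a negative sign (4.91%), against 58 positive and 53 negative in DESeq2.

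**Figure D3:**
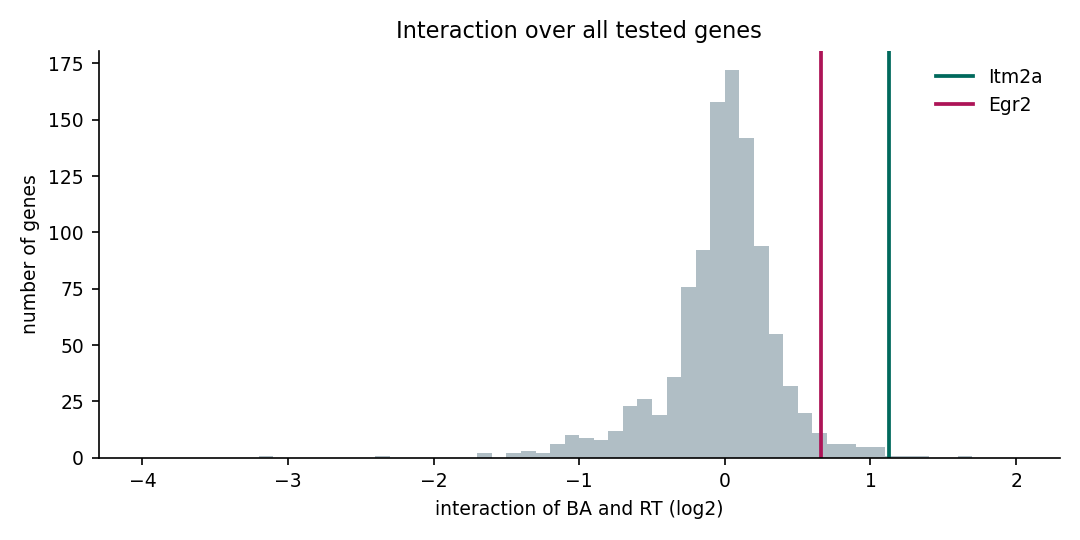
Number of tested genes by their interaction of BA and RT (log2, bins of equal width), with lines at Itm2a (1.13) and Egr2 (0.66). Both lines lie on the positive side, at ranks 4 and 29 from the top of 1038 genes.

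The average change with each treatment was taken over tumours with and without the other one. It is built from the single-treatment changes, whose negative sign was known when the genes were chosen, so the averages too are given with no test. Averaged over irradiated and unirradiated tumours, Itm2a was 1.40-fold lower with BA, a log2 change of -0.49 (SE 0.10). Egr2 was 1.18-fold lower with BA on average, a log2 change of -0.24 (SE 0.09). In both genes the BA+RT mean lay above the RT mean, and the BA mean below the control mean. Across all genes edgeR called 24.7% for the BA average, 109 higher (10.5%) and 147 lower (14.2%), or 79 higher and 231 lower with scaling by the 9 reference genes of each panel.

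Averaged over tumours with and without BA, Egr2 was 1.23-fold lower with radiation, a log2 change of -0.30 (SE 0.09). The Itm2a average with radiation was 0.03 (SE 0.10), with RT tumours below control tumours and BA+RT tumours above BA tumours. Both values depended on the scaling. With the reference genes the average was -0.095 (SE 0.08) for Egr2 and 0.24 (SE 0.11) for Itm2a, and that scaling moved the median of all genes from near 0 to 0.20. It also left RT below control tumours by less, at -0.32 (SE 0.16) for Itm2a and -0.42 (SE 0.11) for Egr2. BA+RT then lay above BA tumours by 0.80 (SE 0.16) for Itm2a and by 0.23 (SE 0.11) for Egr2. Over all genes 59.2% were called for the radiation average, 307 higher (29.6%) and 308 lower (29.7%), or 540 higher and 148 lower with the reference genes.

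Libraries of panel 1 held 959532 to 2616197 counts, and the group medians were 1898032 in BA+RT, 1902836 in RT, 1362126 in BA and 1567411 in control tumours. Itm2a had 1086 to 4535 counts per library and Egr2 had 84 to 337. Counting error alone would give a coefficient of variation of 1.95% to 2.87% for Itm2a, while tumours of a group varied by 17.2% to 24.8%. For Egr2 counting error would give 7.43% to 9.25%, against an observed 12.7% to 22.9%, with the widest spread in control tumours for both genes. These figures cover counting error only. With every library thinned to the smallest total, the Egr2 average was -0.25 with radiation and -0.26 with BA on the log2 scale. Of the epithelial tumour markers, Epcam was present in every library at 4173 to 14439 CPM, and Muc1 ran from 10.9 to 307 CPM.

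Within a group, tumours with more Itm2a did not have detectably more or less Egr2. Pearson's r over the 9 mice was -0.24 in BA+RT tumours, -0.36 in RT tumours, -0.40 in BA tumours and -0.14 in control tumours. The exact permutation p values over all pairings, adjusted over the 4 groups, ran between 0.688 and 0.720. Spearman's rho was -0.22 in BA+RT, -0.57 in RT, -0.23 in BA and -0.08 in control tumours (exact permutation, adjusted p between 0.482 and 0.843). Without the 2 mice farthest from the median Itm2a level, r was -0.32 in BA+RT, -0.49 in RT, 0.45 in BA and 0.18 in control tumours. In RT tumours the value moved with single mice, to 0.023 without RT mouse 23 and to -0.74 without RT mouse 25 (exact permutation p = 0.952 and 0.0418, unadjusted). Leaving out 1 mouse also gave -0.58 to -0.10 in BA+RT, -0.60 to 0.15 in BA and -0.29 to 0.17 in control tumours. With 9 mice a group, only a strong relation could have been detected.

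The tumours are mixtures of cells, and in bulk RNA fewer cells of a type and less RNA per cell cannot be told apart. After each group's mean was taken off, Itm2a went up and down with fibroblast and pericyte markers from mouse to mouse. The relation with the mean log2 level of 7 such genes, among them the collagen gene Col1a2, the smooth muscle actin gene Acta2 and the pericyte gene Cspg4, had r = 0.67 and rho = 0.63 over 36 mice (adjusted p = 0.00072 for r and 0.00108 for rho, permutations within groups, 18 relations). Without the 2 farthest mice r was 0.62. Within groups r was 0.58 in BA+RT, 0.75 in RT, 0.36 in BA and 0.85 in control tumours. Itm2a also moved with the skeletal muscle markers Mb, the oxygen carrier of muscle, and Myod1, a muscle-determining transcription factor (r = 0.61, rho = 0.62, adjusted p = 0.00144 and 0.00126, permutations within groups). Without the 2 farthest mice this r was 0.59, and within groups it was 0.83 in BA+RT, 0.71 in RT, 0.17 in BA and 0.61 in control tumours.

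Egr2 moved with endothelial markers instead. Its r with Kdr, a receptor for VEGF, and Eng, a co-receptor for TGF-β family ligands, was 0.52 and its rho was 0.51 (adjusted p = 0.0181 and 0.0219, permutations within groups, 36 mice). Without the 2 farthest mice r was 0.43, and within groups it was 0.62 in BA+RT, 0.36 in RT, 0.45 in BA and 0.63 in control tumours. It also rose with the total count of the library (r = 0.47, rho = 0.49, adjusted p = 0.0452 and 0.0241, permutations within groups; r = 0.48 without the 2 farthest mice). That relation had r = 0.56 in BA+RT, 0.06 in RT, 0.41 in BA and 0.76 in control tumours. Itm2a had the other sign with the library total (r = -0.40, rho = -0.40, adjusted p = 0.0694 and 0.0685, permutations within groups), with r = -0.59 in BA+RT, -0.39 in RT, -0.68 in BA and -0.20 in control tumours, and this did not pass the test. No relation with T cell markers passed the test, with r = -0.09 for Itm2a (adjusted p = 0.835) and r = -0.41 for Egr2 (adjusted p = 0.0701, permutations within groups). The relation of Egr2 with macrophage markers had r = 0.14 (adjusted p = 0.658, permutations within groups). These 18 relations were chosen after the data had been seen.

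**Figure D4:**
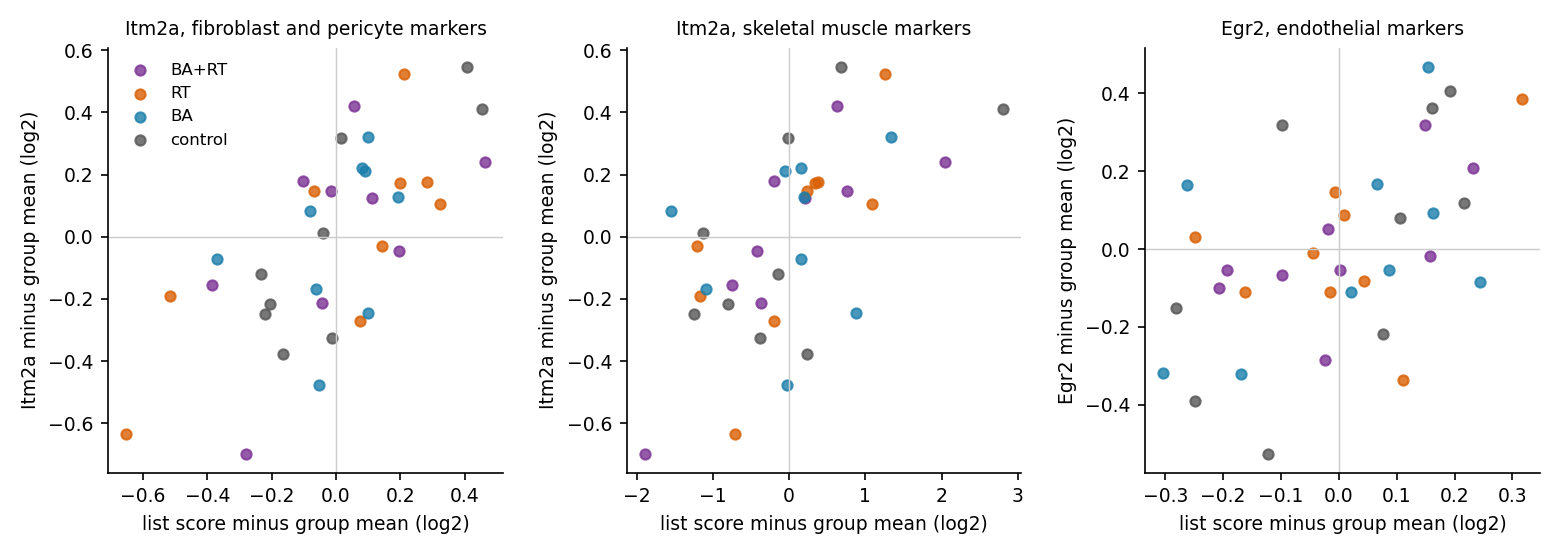
Log2 level of Itm2a or Egr2 in each tumour against the mean log2 level of a marker list, both with the mean of the tumour's group taken off; each point is 1 of 36 tumours, coloured by group. Itm2a goes up with fibroblast and pericyte markers (r = 0.67) and with skeletal muscle markers (r = 0.61), and Egr2 with endothelial markers (r = 0.52).

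Those marker levels themselves differed between the groups. For marker and list genes, a change with BA or radiation is the average over both levels of the other treatment, unless groups are named. Fibroblast and pericyte genes were lower with BA on average: 5 of the 7 fell and 0 rose, where 14.2% of all genes fell, with a median log2 change of -0.56 against 0.01 over all genes. The largest were Cspg4 at -1.50 (SE 0.15), Acta2 at -0.74 (SE 0.13), Fap, a protease of activated fibroblasts, at -0.66 (SE 0.09) and Col1a2 at -0.56 (SE 0.10). Their summed level ran from 42514 to 78093 CPM in BA+RT, 38552 to 89890 CPM in RT, 42061 to 60960 CPM in BA and 58643 to 108518 CPM in control tumours. By group means, Col1a2 and the collagen gene Col3a1 made up most of that sum. None of the 7 was called for an interaction (0 of 7 in edgeR), with a median of 0.38. Skeletal muscle markers summed to between 500 and 5682 CPM in BA+RT, 365 and 2393 CPM in RT, 347 and 3737 CPM in BA and 256 and 4948 CPM in control tumours. By group means, Mb made up most of this sum. Of Mb and Myod1, Myod1 rose with radiation (0.90, SE 0.37, not called by limma on the deposited log2 values), and neither was called for BA or for the interaction. No gene of these lists was at 0 in all libraries of a group, and their part in the Itm2a levels was not tested.

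Both endothelial markers fell on the BA average, where 14.2% of all genes fell. Kdr fell by 0.43 (SE 0.08) and Eng by 0.20 (SE 0.06) on the log2 scale. Kdr was called as lower both in BA than in control tumours and in BA+RT than in RT tumours. Eng was called only between BA+RT and RT tumours, at -0.30 (SE 0.08), and was at -0.10 (SE 0.08) between BA and control tumours. With radiation Eng rose by 0.18 (SE 0.06) and Kdr fell by 0.27 (SE 0.08), a change that was -0.07 and not called with the reference genes. Neither was called for the interaction. The summed level ran from 1679 to 2529 CPM in BA+RT, 2124 to 3003 CPM in RT, 1675 to 2255 CPM in BA and 1700 to 2636 CPM in control tumours. Eng made up most of it, with group means of 1796 to 2339 CPM against 137 to 223 CPM for Kdr. The part of these markers in the Egr2 levels was not tested.

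Both genes have known roles in T cells. The 11 tested T cell markers had a median summed level of 116 CPM in BA+RT, 91.8 CPM in RT, 270 CPM in BA and 129 CPM in control tumours. Their sums lay between 97.0 and 272 CPM in BA+RT tumours, 78.1 and 292 CPM in RT tumours, 179 and 517 CPM in BA tumours and 90.0 and 309 CPM in control tumours. Lck was a large part of these sums, with means of 64.6 CPM in BA+RT, 60.5 in RT, 78.7 in BA and 57.4 in control tumours. It was not called for the radiation average, so the sums follow the other markers less closely. On the BA average 2 of 11 rose and 0 fell, against 10.5% and 14.2% of all genes, a share of risen genes near the background. They were Cd3g, a chain of the T cell receptor complex, at 1.11 (SE 0.32) and Zap70, a kinase of that receptor, at 0.64 (SE 0.20). The median of the 11 with BA was 0.64, against 0.01 over all genes, and limma on the deposited log2 values called 4 as higher. Between BA and control tumours alone, edgeR called Cd2 (1.14, SE 0.35), Cd3g (1.58, SE 0.44), Zap70 (0.91, SE 0.28) and Lck (0.46, SE 0.17) as higher. It called 27% of all genes there, in either direction. Between BA+RT and RT tumours none of the 11 was called, where 10.8% of all genes were. With radiation 9 of 11 fell and 0 rose, or 7 with the reference genes, where 29.7% of all genes fell. None of the 11 was called for the interaction (0 in edgeR), with a median of -0.87 and Cd8a at 0.17 (SE 0.86). The part of T cells in the Itm2a and Egr2 levels was not tested.

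Of the family and pathway of Egr2, Egr1, Egr3 and Egr4 are not on the panels, and Itm2a is the only ITM2 gene on them. Of the other Egr-related, immediate-early and NFAT genes 9 were tested. With BA 3 rose and 2 fell, against 10.5% and 14.2% of all genes, with a median of 0.0014 against 0.0066 over all genes. Jun, a subunit of the AP-1 factor, rose by 0.34 (SE 0.06), and Irf4, a transcription factor induced by antigen receptors, rose by 0.57 (SE 0.17). Nab1, a corepressor that binds EGR proteins, fell by 0.11 (SE 0.04) and the NFAT factor Nfatc4 fell by 0.32 (SE 0.07). With radiation 3 rose and 1 fell, where 29.6% and 29.7% of all genes did. Fos, the partner of Jun in AP-1, rose by 0.49 (SE 0.11) and Irf4 fell by 1.19 (SE 0.17). With the reference genes 6 rose with radiation and 1 fell. For the interaction 1 of 9 was called, Myc, a growth-promoting transcription factor, at -0.37 (SE 0.09, edgeR adjusted p = 0.0063), a share near the 8.29% called over all genes.

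Inhibitory and anergy genes linked to Egr2 in T cells were tested for 8 members. With BA 2 of 8 rose and 1 fell, against 10.5% and 14.2% of all genes. The inhibitory receptors Ctla4 at 0.97 (SE 0.33) and Pdcd1 at 0.70 (SE 0.25) rose, and the cytokine Il10 at -0.93 (SE 0.21) fell. Levels were low, with group means of 3.1 to 29.5 CPM for Ctla4 and 2.8 to 9.9 CPM for Pdcd1. After thinning 7 of the genes were tested, and 1 rose and 1 fell with BA. With radiation 5 fell and 2 rose, where 29.7% and 29.6% of all genes did. Ctla4 was at -2.27 (SE 0.32), the costimulatory receptor Tnfrsf9 at -1.23 (SE 0.16), and the inhibitory receptor Tigit at 1.22 (SE 0.12). The median with radiation was -0.64, against 0.01 over all genes. For the interaction 1 of 8 was called, a share near the 8.29% called over all genes. It was Havcr2, which encodes the receptor TIM-3, at -0.54 (SE 0.16, edgeR adjusted p = 0.0293), and it was not called with the reference genes or after thinning. Cblb, a ubiquitin ligase that restrains T cell activation, was at -0.01 (SE 0.05) with BA and fell by 0.38 (SE 0.05) with radiation.

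Genes of T cell selection and activation, the setting in which Itm2a was described, had 9 tested members. On the BA average 5 of 9 rose and 0 fell, against 10.5% and 14.2% of all genes, with a median of 0.51. Il2ra, the interleukin 2 receptor alpha chain, rose by 1.28 (SE 0.18), the costimulatory receptor Icos by 0.96 (SE 0.25), Tnfrsf18 by 0.55 (SE 0.13) and Tnfrsf4 by 0.39 (SE 0.09). Between BA and control tumours they were at 1.53 (SE 0.25), 1.49 (SE 0.34), 1.12 (SE 0.19) and 0.77 (SE 0.13), all called in edgeR. Between BA+RT and RT tumours Il2ra was at 1.03 (SE 0.25) and was the only gene of the 9 called. There Icos was at 0.43 (SE 0.36), Tnfrsf18 at -0.03 (SE 0.19) and Tnfrsf4 at 0.008 (SE 0.13). With radiation 7 fell and 1 rose, where 29.7% and 29.6% of all genes did, or 5 fell with the reference genes. The 1 that rose was the early activation marker Cd69, at 0.86 (SE 0.13). Gata3, a transcription factor of T cells that also acts in mammary epithelium, rose by 0.31 (SE 0.08) with BA. For the interaction 2 of 9 were called, against 8.29% of all genes. They were Tnfrsf18 at -1.15 (SE 0.27, edgeR adjusted p = 0.00528) and Tnfrsf4 at -0.77 (SE 0.19, edgeR adjusted p = 0.0083). After thinning, the calls of Tnfrsf4 for BA and the interaction and of Icos for BA were lost.

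Genes of alternatively activated macrophages, another setting of Egr2, had 6 tested members. On the BA average none of the 6 was called (0 in edgeR), against 24.7% of all genes. That average joined unlike changes. BA tumours lay above control tumours by 0.47 (SE 0.10) for the enzyme Arg1 and 0.44 (SE 0.09) for the scavenger receptor Msr1, both called in edgeR. Between BA+RT and RT tumours Msr1 was at -0.40 (SE 0.09, called) and Arg1 at -0.17 (SE 0.10, not called). No other gene of the 6 was called in either comparison. On the radiation average 1 was called, against 59.2% of all genes: the chemokine Ccl17 fell by 0.53 (SE 0.09). Arg1 and Msr1 changed in opposite directions within that average. RT tumours lay above control tumours by 0.28 (SE 0.10) for Arg1 and 0.48 (SE 0.09) for Msr1. BA+RT tumours lay below BA tumours, at -0.36 (SE 0.10) for Arg1 and -0.35 (SE 0.09) for Msr1. All of these differences were called in edgeR. With the reference genes 3 rose with radiation and 1 fell. For the interaction 8.29% of all genes were called, 4.91% with a negative sign. Of these 6 genes 2 were called, both negative: the enzyme Arg1 at -0.64 (SE 0.14, edgeR adjusted p = 0.00398) and the scavenger receptor Msr1 at -0.84 (SE 0.13, edgeR adjusted p = 0.000137). Of 5 general macrophage markers 2 were called for the interaction, both negative: Cd14 at -0.60 (SE 0.17) and Cd68 at -0.30 (SE 0.09), which lost its call in 5 of 7 alternatives. With radiation 2 of these 5 rose and 2 fell, where 29.6% and 29.7% of all genes did, or 3 and 1 with the reference genes. Adgre1, the F4/80 antigen, was at 0.76 (SE 0.09) and Cd68 at 0.55 (SE 0.05), while Csf1r was at -0.65 (SE 0.06) and Cd14 at -0.28 (SE 0.08). Neutrophil markers gave 1 interaction call of 4, against the same 8.29%: Fpr2, a receptor for formylated peptides, at -0.98 (SE 0.20, edgeR adjusted p = 0.00259). The only gene of the lists called with a positive interaction was Eomes, a transcription factor of NK and T cells, at 0.49 (SE 0.15, edgeR adjusted p = 0.0405). Eomes was not called with the reference genes, total counts or thinning. The other 3 NK cell markers were not called in edgeR and had negative estimates. Klrd1 was at -0.77 (SE 0.46), Ncr1 at -0.72 (SE 0.56) and Klrk1 at -0.24 (SE 0.47), and the median of the 4 was -0.48. Klrd1 and Ncr1, 2 of the 4, rose with BA and fell with radiation, where 10.5% and 29.7% of all genes did. Neither of 2 B cell markers was called for the interaction.

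By likeness over the 36 mice, the 793 tested genes of panel 1 were ranked by Pearson's r of log2 CPM with each gene, as a description. Closest to Itm2a were Col8a2, a collagen VIII chain (r = 0.79), Rab38, a small GTPase of organelle transport (r = 0.76), and Fap (r = 0.75), followed by the collagen receptor Mrc2 (r = 0.70) and the adhesion molecule Ncam1 (r = 0.69). With group means taken off, Fap (r = 0.75), Col8a2 (r = 0.73), the surface glycoprotein Cd200 (r = 0.73), the potassium channel Kcnj15 (r = 0.69) and the proteasome subunit Psmd11 (r = 0.69) came first. Fap and Col8a2 were thus in both sets. Fap belongs to the fibroblast and pericyte markers, so the 2 results share that gene.

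Closest to Egr2 over the 36 mice were Chst2, a sulfotransferase (r = 0.79), Rai14 (r = 0.74), the endothelin receptor Ednra (r = 0.74), Nap1l4 (r = 0.72) and Emp1 (r = 0.71). With group means taken off they were Apbb2 (r = 0.73), Prrc2b (r = 0.71), the cofilin phosphatase Ssh1 (r = 0.67), Dtnb (r = 0.66) and the vesicle coat protein Sec24c (r = 0.64). These 2 sets of highest r for Egr2 had no gene in common, and neither shared a gene with those for Itm2a. At the negative end, which the naming rule did not cover, Irf5, an interferon regulatory factor, was among the 3 lowest for Egr2 both over the 36 mice (r = -0.74) and with group means taken off (r = -0.57). Over the 36 mice the r between Itm2a and Egr2 was 0.33, and with group means taken off it was -0.25. The values of a pair share their library and its scaling.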

How the data were processed

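Amplicon sequencing of tumour RNA on 2 targeted panels gave 72 libraries from 36 mice. The authors deposited counts per amplicon, which are whole numbers and not normalized. They also deposited log2 values under the name rlog, the regularized log of DESeq2, a tool in the submitters' processing notes. No source used here gives the aligner, the counter or the use of molecular barcodes. Position columns are headed GRCh38, but 1277 of 1278 amplicons lay inside the named mouse gene on GRCm38, whose GENCODE transcripts supplied the 2 sequences. Genomic DNA control rows held 2.32e-05% of counts and were left out.

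Counts were fitted per panel with edgeR 4.0.16 in R 4.3.3, with TMM scaling, the expression filter by group, 4 group means and a robust two-sided quasi-likelihood F test. Calls used an adjusted p below 0.05 (Benjamini-Hochberg, 1038 genes). The fit was tested on simulated data. CPM values use TMM factors, and log2 CPM a prior count of 2. Correlations used Python 3.11.15 with scipy 1.17.1, over all pairings or 100000 permutations. A marker score was the mean log2 CPM of a list's tested genes. Named were the 2 genes, the 5 genes most like each, and up to 4 called genes a list, with the remaining names chosen after their values were seen. The members and lists were chosen with earlier results of these data known. For that reason no test of the 2 genes' own group changes is reported, the averages over the other treatment included.

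Alternatives were DESeq2 1.42.0, reference-gene or total-count scaling, no filter, limma 3.58.1 on the deposited log2 values, a fit that was not robust, thinned counts and leaving out each mouse. Each mouse bore its own tumour, and the groups have no mouse number in common, so nothing was paired.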

Additional observations from a re-analysis of the deposited data

Results flagged for a closer look

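In both genes the change with BA in irradiated tumours differed from that in unirradiated tumours, by 1.13 on the log2 scale for Itm2a and by 0.66 for Egr2. This is the contrast by which the genes were chosen, so it is listed here as a value. No tumour stood apart from its group of 9 in either gene by Dixon's criterion.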

How the results depend on the processing

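The Itm2a average with BA was -0.53 to -0.31 over the alternatives and -0.52 to -0.44 without 1 mouse. The Egr2 average with BA was -0.26 to -0.14 over the alternatives, -0.23 with total counts among them, and -0.27 to -0.21 without 1 mouse. The Egr2 average with RT was -0.095 with the reference genes and -0.35 to -0.28 without 1 mouse. The Itm2a average with RT was 0.24 with the reference genes, -0.00092 after thinning and -0.023 to 0.072 without 1 mouse, below 0 without RT mouse 23 or BA mouse 10. Limma on the deposited log2 values, which are shrunken, gave interactions of 0.74 for Itm2a and 0.40 for Egr2, an Itm2a difference of -0.68 between BA and control and an Egr2 difference of -0.38 between RT and control. Without 1 mouse the interactions were 1.05 to 1.21 for Itm2a and 0.62 to 0.74 for Egr2. The correlation of both genes in RT tumours was -0.74 to 0.023 without 1 mouse. Calls over all genes numbered 243 to 310 for BA, 558 to 688 for RT and 61 to 111 for the interaction. The cause of these differences was not tested. Egr2, with 84 to 337 counts a library, has the larger counting error of the 2 genes.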
